A study of Mus musculus with 6 samples.

Results

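The transcript clusters described here are 10 rows of the deposited value table, of 35557 in all. A transcript cluster is the group of array probes that the maker assigned to one transcript unit, and each gives one row. Of the 10, 9 list several gene symbols in the platform annotation, and the remaining row is the single-symbol row of Galt. The rows were chosen by their identifiers because their values differed between knockout and wild type in these same arrays. Their differences are therefore given as a description, with no p-value for any of them; the fit over all rows serves as background, and nothing is read from their place in it.

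RNA came from the lumbar spinal cord of mouse embryos of strain SV129 at embryonic day E15.5. The wild-type group had 3 arrays, and the knockout group, labelled TNC -/- for the matrix glycoprotein tenascin-C, had 3 arrays of the same strain, age and tissue. Which part of Tnc was deleted, the litters, the sex of the embryos and any pooling of embryos were not stated. All 6 arrays are titled as biological replicates; where they did not come from separate embryos, the spread between them would be technical.

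The stretch of chromosome 4 around Galt holds repeated copies of a segment with chemokine genes (Ccl19, Ccl21, Ccl27), a receptor gene for interleukin-11 and a set of pseudogenes and non-coding transcripts. Copies of such a segment can be almost identical in sequence, so that an array probe can match several of them at once and a single row can carry the symbols of all. A pseudogene is a gene copy that has lost the ability to make the original protein, although it may still be transcribed. Galt encodes galactose-1-phosphate uridylyltransferase, an enzyme of the Leloir pathway, which converts galactose into forms the cell can use for energy and for building glycans. Loss of the enzyme causes classic galactosaemia in humans.

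The 9 multi-symbol rows (10504121, 10504123, 10504125, 10504139, 10504148, 10504169, 10504172, 10504178 and 10512327) listed 7 symbols between them. All 9 listed Gm21158, Gm3893, Gm7819, Gm10590, Gm5859 and 4933409K07Rik, and 2 of them, 10504139 and 10504172, listed 4930578G10Rik as well. The RefSeq gene table matched 6 of the 7 symbols, all on chromosome 4. It gives Gm21158 as a pseudogene, Gm3893, Gm7819, Gm5859 and 4933409K07Rik as transcribed pseudogenes, and 4930578G10Rik as a long non-coding RNA. In the order of that table, 17 genes lie between Galt and Gm3893, 24 between Galt and Gm5859, 45 between Galt and 4930578G10Rik and 46 between Galt and Gm21158. Gm7819 and 4933409K07Rik stood far from Galt in that table, with 2406 and 2408 genes between them and Galt. Whether they lie far from it on the chromosome was not checked. A signal in these rows cannot be assigned to one of the listed loci.

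RefSeq promoter sequence (build GRCm38.p6, from C57BL/6J, not the strain studied) was held for Galt and for 1 of the 7 symbols, 4930578G10Rik. Both windows are shown because they are the sequences at hand that belong to the members; each is the 250 bases before the gene's start, 5′ to 3′. The window of Galt is chr4:41755267-41755516 and that of 4930578G10Rik is chr4:42670040-42670289, both on the plus strand. Capitals mark matches, on either strand, to the GC box GGGCGG, the CCAAT box CCAAT and the E-box CACGTG.
Galt: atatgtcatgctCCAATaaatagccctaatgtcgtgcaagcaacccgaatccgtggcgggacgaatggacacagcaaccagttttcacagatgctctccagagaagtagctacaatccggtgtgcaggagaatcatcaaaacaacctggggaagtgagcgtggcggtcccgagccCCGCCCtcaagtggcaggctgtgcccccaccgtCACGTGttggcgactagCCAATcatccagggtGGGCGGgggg
4930578G10Rik: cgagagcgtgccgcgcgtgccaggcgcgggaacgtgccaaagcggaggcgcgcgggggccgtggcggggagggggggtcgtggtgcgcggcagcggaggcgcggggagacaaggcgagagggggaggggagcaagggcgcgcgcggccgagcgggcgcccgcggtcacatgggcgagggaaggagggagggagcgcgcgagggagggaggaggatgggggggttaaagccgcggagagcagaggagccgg
The Galt window held 5 matches. The CCAAT box occurred 238 to 234 and 25 to 21 bases before the start, the E-box 42 to 37 bases before it, and the GC box 10 to 5 bases before it and, on the opposite strand, 75 to 70 bases before it. None of the 3 motifs occurred in the window of 4930578G10Rik. Among 32851 mouse windows of the same 250 bases, 32.7% held GGGCGG, 33.8% held CCAAT and 6.02% held CACGTG.

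How alike the copies in this district can be is seen in its chemokine genes, whose promoter windows are shown for that reason. Ccl21d (chr4:41903363-41903612) and Gm13304 (chr4:42114537-42114786), both on the plus strand and both listed by one set of multi-symbol rows, shared 299 of the 300 bases compared, which include some past the start. The 1 difference was T143C, with positions counted from the first base of the window, T in Ccl21d and C in Gm13304; capitals mark it.
Ccl21d: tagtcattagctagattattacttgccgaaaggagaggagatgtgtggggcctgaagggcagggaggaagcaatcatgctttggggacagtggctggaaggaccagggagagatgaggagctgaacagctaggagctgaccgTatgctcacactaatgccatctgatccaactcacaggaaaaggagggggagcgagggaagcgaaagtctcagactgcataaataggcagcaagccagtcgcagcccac
Gm13304: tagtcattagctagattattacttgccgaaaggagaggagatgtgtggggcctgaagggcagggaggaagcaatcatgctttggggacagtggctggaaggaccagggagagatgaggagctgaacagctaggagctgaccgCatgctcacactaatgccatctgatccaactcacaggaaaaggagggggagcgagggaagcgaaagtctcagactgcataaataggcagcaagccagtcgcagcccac
For Ccl27b (chr4:42650313-42650562) and Gm13306 (chr4:42153154-42153403), on the plus strand too, all 300 of 300 bases were identical, so the 250 bases before the start are printed once.
Ccl27b: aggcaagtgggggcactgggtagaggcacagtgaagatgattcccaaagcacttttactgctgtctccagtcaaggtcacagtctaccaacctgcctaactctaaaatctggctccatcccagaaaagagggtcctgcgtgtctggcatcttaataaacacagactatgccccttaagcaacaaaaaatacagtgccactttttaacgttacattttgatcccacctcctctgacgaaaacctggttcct
No base in the Ccl27b sequence is in capitals because there is no difference to mark. Ccl27a, which appears in the same annotation as these, shared 28.33% of bases with Ccl27b position by position. Ccl21d likewise shared 23.67% with Ccl21a and 29.33% with Ccl21b, which the same rows list. No gaps were allowed in these comparisons, so windows that begin at different places would score low even if the copies were alike.

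All 9 multi-symbol rows lay far lower in knockout. Over these rows the 27 wild-type values ran from 8.35 to 9.37 with a median of 9.13 on the log2 scale, and the 27 knockout values from 6.54 to 7.01 with a median of 6.68. Knockout minus wild type ran from -2.50 to -2.02 with a median of -2.40, which is a 4.06- to 5.65-fold higher signal in wild type. Knockout signal was thus 17.7% to 24.6% of wild type. The knockout values lay little above a guide to background of 6.13, defined below, and array medians ran from 6.96 to 7.10. The percentage therefore compares array signal and does not measure the transcript that remains. The groups did not overlap in any of the 9 rows, which were chosen on this contrast, while 3.27% of all rows had groups apart and lower in knockout. The gap between the lowest wild-type and the highest knockout array ran from 1.54 to 2.10.

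**Figure D1:**
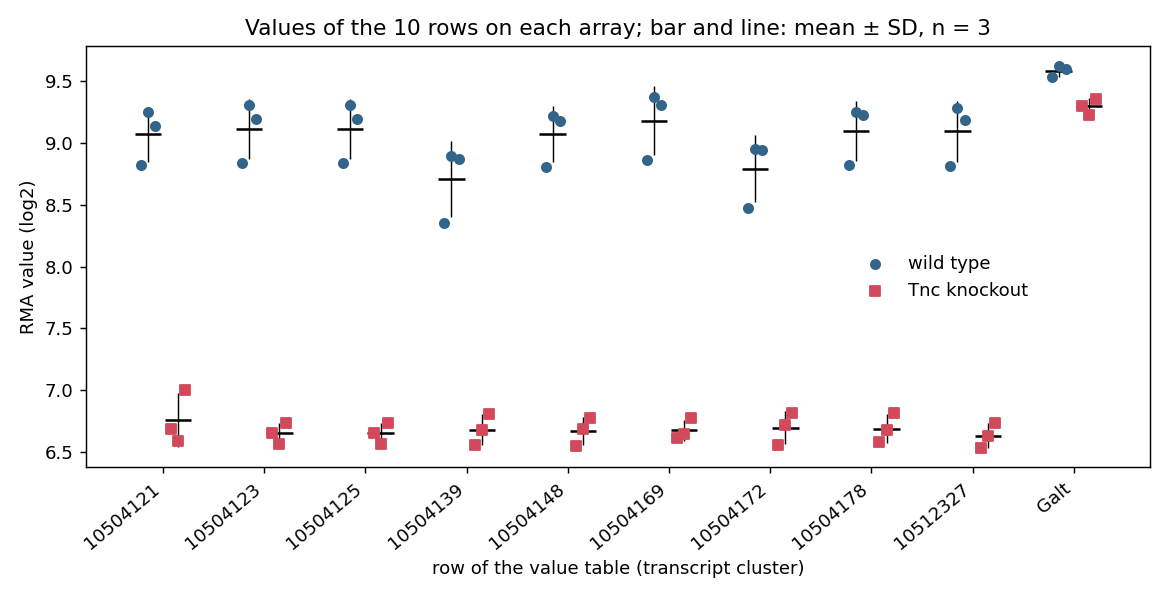
Log2 signal (vertical axis) of each of the 10 member rows (horizontal axis) on the 3 wild-type and 3 knockout arrays; points are single arrays and short bars the group means. In the 9 multi-symbol rows all wild-type points lie at 8.35 or above and all knockout points at 7.01 or below, whereas the Galt groups are 0.29 apart.

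The 9 rows are not taken as separate measurements, since their annotation overlaps; which probes they share is not known here. The annotation of the 9 rows held 12 accessions in all, 10 of which were common to every row. Rows 10504123 and 10504125 held the same value on each array. Counting rows that lay within 0.1 log2 units of each other on all 6 arrays as one, the 9 rows gave 6 distinct observations and, with Galt, 7. The median difference was -2.36 over the 6 and -2.30 over the 7.

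Row 10504169 had the largest difference. It read 8.86, 9.37 and 9.31 in wild type and 6.61, 6.65 and 6.78 in knockout, a difference of -2.50 (SE 0.14). The group means were 9.18 ± 0.28 (SD, n = 3) and 6.68 ± 0.09 (SD, n = 3). The pair 10504123 and 10504125 read 8.84, 9.30 and 9.19 in wild type and 6.66, 6.57 and 6.74 in knockout. Their means of 9.11 ± 0.24 (SD, n = 3) and 6.66 ± 0.09 (SD, n = 3) differed by -2.45 (SE 0.13). In both of these observations every knockout array was more than 2 log2 units below the lowest wild-type array.

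Rows 10504148, 10504178 and 10512327 formed 1 observation. Its mean profile was 8.81, 9.25 and 9.19 in wild type and 6.56, 6.66 and 6.78 in knockout. The difference was -2.42, or 5.34-fold, between 9.08 ± 0.24 (SD, n = 3) and 6.67 ± 0.11 (SD, n = 3). Within it the single rows differed by -2.39, -2.40 and -2.46. Row 10504121 read 8.82, 9.25 and 9.13 in wild type and 6.69, 6.59 and 7.01 in knockout, a difference of -2.30 (SE 0.15) between 9.07 ± 0.22 and 6.76 ± 0.22 (SD, n = 3 each). Knockout array 3 gave the highest knockout value of all 9 rows.

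The 2 rows that also listed the long non-coding RNA 4930578G10Rik had the smallest differences. Row 10504139 read 8.35, 8.89 and 8.87 in wild type and 6.56, 6.68 and 6.81 in knockout, a difference of -2.02 (SE 0.16). Row 10504172 read 8.48, 8.95 and 8.94 in wild type and 6.56, 6.72 and 6.82 in knockout, a difference of -2.09 (SE 0.15). The other 7 rows lay between -2.50 and -2.30. Knockout means of the 2 rows (6.68 and 6.70) fell within the range of the other 7 (6.64 to 6.76), whereas their wild-type means (8.71 and 8.79) were under that range (9.07 to 9.18). That split was seen after the values were known and was not tested.

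Arrays within a group kept nearly one order across the rows. The first wild-type array was the lowest of its group and the second the highest in 9 of 9 rows, and the third knockout array was the highest of its group in 9 of 9. The first knockout array was the lowest of its group in 6 rows and the second in 3. Between any pair of the 36 pairs of rows, deviations from the group means correlated at 0.82 to 1.0 over the 6 arrays, values that describe rows with shared accessions on shared arrays. Wild-type arrays were more spread than knockout arrays, with SDs of 0.22 to 0.30 against 0.09 to 0.22, a difference that was not tested.

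Galt differed by less. It read 9.53, 9.62 and 9.59 in wild type and 9.30, 9.22 and 9.35 in knockout. The group means were 9.58 ± 0.05 (SD, n = 3) and 9.29 ± 0.06 (SD, n = 3), a difference of -0.29 (SE 0.08), so that knockout signal was 82.0% of wild type. The groups did not overlap, as in 3.27% of all rows in that direction, and were 0.18 apart at their nearest arrays. For Galt the lowest knockout array was the second, while the first wild-type array was again the lowest of its group.

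Across all 35557 rows, limma's moderated test with Benjamini-Hochberg adjustment put 9 rows past an adjusted p of 0.05, which is 0.0253% of rows. They were the 9 multi-symbol rows; since these had been chosen on the same contrast, nothing is read from that count. An unadjusted p under 0.05 was found in 860 rows (2.42%). The smallest adjusted p among the other rows was 0.213. Groups that did not overlap, lower in knockout, were found in 1163 rows (3.27%), and higher in knockout in 1011 (2.84%). A difference of 2 log2 units or more downward was found in 10 rows (0.0281%), the 9 multi-symbol rows and Xist. The median size of a difference over all rows was 0.06. Leaving out the first knockout array left 0 rows past the threshold in limma (686 rows at an unadjusted p under 0.05), and weighting arrays by their quality raised the count to 38. Under every one of 15 other settings each multi-symbol row lay between -2.68 and -1.93. Several of these settings cannot change a difference, and the rows were chosen on this contrast.

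**Figure D2:**
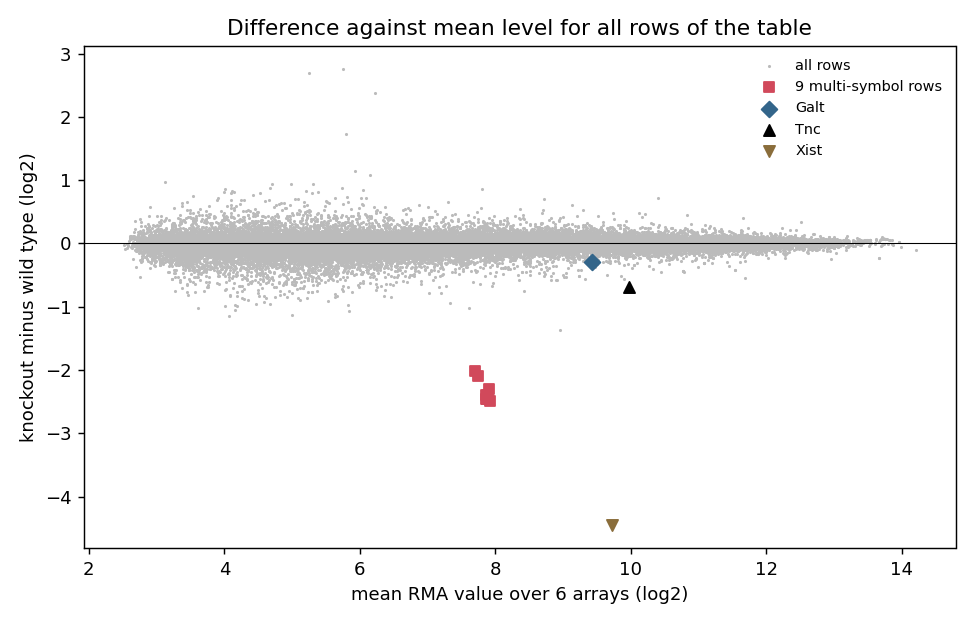
Knockout minus wild type (log2, vertical axis) against mean log2 level (horizontal axis) for all 35557 rows, with the 9 multi-symbol rows and Galt marked. The 9 rows sit between -2.50 and -2.02 and Galt at -0.29, while the median of all rows is -0.01.

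Tnc, the targeted gene, read 10.72, 10.22 and 10.02 in wild type and 9.64, 9.76 and 9.47 in knockout, a difference of -0.69 (SE 0.19; exact two-sided permutation p = 0.1, the smallest that 3 against 3 arrays allow). Its groups did not overlap, and it lies on chromosome 4 as well, with 485 genes between it and Galt in table order. All 6 neuronal, 4 of 4 motor neuron, 6 of 6 radial glia and 6 of 6 lumbar Hox genes were above 6.13. That guide to background was set at the 95th percentile of 1205 rows for odorant and pheromone receptors. It lies under every array median, and markers of other cell types passed it too, so passing it does not identify the tissue. Array medians ran from 6.96 to 7.10. Knockout arrays 1 and 3 carried Y-linked signal (mean log2 level 8.20 and 7.86 over 3 genes, against 4.32 to 4.48 elsewhere) and Xist at 5.44 and 5.38 (11.60 to 12.25 elsewhere). The second knockout array, without Y-linked signal like the wild-type arrays, differed from the wild-type mean by -2.54 to -2.02 in the 9 multi-symbol rows. Since the arrays with Y-linked signal were all knockout, a term for that signal in the fit leaves knockout array 2 alone against the wild-type arrays. Differences under that term therefore rest on 1 knockout array, and no count of rows is given for it.

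Markers of other cell types that the dissection could hold were summed up per array as the mean log2 level of a list. The blood endothelium mean, with 4 of 4 markers above the guide, was 8.96 to 9.14 in wild type and 9.12 to 9.32 in knockout, which overlap. The mean over 4 germ cell and testis markers, of which 1 was above the guide, was 5.36 to 5.64 in wild type and 5.44 to 5.52 in knockout. Lymphatic endothelium, a known source of Ccl21, had 4 of 4 markers above the guide at 8.45 to 8.64 in wild type and 8.47 to 8.59 in knockout. T and dendritic cell markers, 3 of 6 above the guide, gave 5.91 to 6.18 and 5.95 to 6.10. Fibroblast and meningeal markers, 4 of 5 above the guide, gave 7.40 to 7.53 and 7.25 to 7.54, and microglia and macrophage markers, 3 of 4, gave 7.59 to 7.65 and 7.55 to 7.71. Keratinocyte markers, 3 of 4, gave 6.31 to 6.52 and 6.36 to 6.42, and skeletal muscle markers, 3 of 4, gave 6.52 to 6.77 and 6.56 to 6.77. Of 4 red cell markers 1 was measured, at 8.003 to 8.10 and 7.89 to 8.23. The ranges overlapped in each of these lists, and the part of any of these cells in the results was not tested. In whole tissue, fewer cells of a type and less RNA per cell cannot be told apart.

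Other rows carry some of the same symbols alone. Gm10590 was the sole symbol of 4 rows with identical values, 8.59, 8.58 and 8.73 in wild type and 8.44, 8.38 and 8.63 in knockout. The groups overlapped, and the difference was -0.15 (SE 0.10; limma adjusted p = 1.0). The row of 4930578G10Rik alone, 10504203, read 6.23, 6.20 and 6.32 in wild type and 6.04, 6.27 and 5.77 in knockout. Its groups overlapped too, at a difference of -0.23 (SE 0.13, limma adjusted p = 1.0). With a term for Y-linked signal, which leaves knockout array 2 alone, the difference was 0.02. It was -0.10 without the third knockout array and -0.35 without the second. Wild-type values of this row were close to the 6.13 guide to background. Neither profile showed a difference of 2 log2 units. In row 10504203, so near the guide, there may be no room for a fall of that size.

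The district between Arid3c and Phf24 gives the setting of the members. Row numbers followed gene order in 98.3% of consecutive chromosome 4 pairs, and by them the district held 37 rows: the 10 members and 27 others with 17 distinct profiles. Of the 27, 23 were lower and 4 higher in knockout, where 55.6% of all rows were lower. Centring the arrays on their medians, or normalizing their quantiles again, made that 16 lower and 11 higher, with 42.1% and 47.9% of all rows lower. The rows had a median difference of -0.06 and a range of -0.55 to 0.13. None passed limma's adjusted threshold, and 3 had an unadjusted limma p under 0.05, as had 2.42% of all rows. In 3 the groups did not overlap, all lower in knockout, which held for 3.27% of all rows. These 3 were the rows listing Ccl27a, Ccl27b and their copies, which belong to the skin-homing chemokine CCL27. Repeated rows of one profile are counted separately here, so the counts are not of independent measurements. The set was defined after the values were seen.

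Row 10512315 of the Ccl27 copies read 11.91, 12.07 and 11.89 in wild type and 11.49, 11.40 and 11.32 in knockout, a difference of -0.55 (SE 0.09; limma adjusted p = 0.938), or 68.2% of wild-type signal. Rows 10504164 and 10504194 held identical values, 11.76, 11.89 and 11.60 in wild type and 11.41, 11.33 and 11.27 in knockout, a difference of -0.42 (SE 0.10; limma adjusted p = 1.0). Every knockout array was below every wild-type array in both profiles. Their adjusted p was 0.0276 and 0.0491 with array weights, and between 0.222 and 1.0 under the other settings. The Ccl21 copies, ligands of Ccr7 that guide lymphocytes and dendritic cells, shared 1 profile in 4 rows, at 6.54, 6.85 and 6.87 in wild type and 6.73, 6.78 and 6.72 in knockout. Its groups overlapped, at -0.01 (SE 0.11). The 5 rows of Ccl19, the other Ccr7 ligand, ran from -0.03 to 0.01. The 7 rows with no listed symbol ran from -0.25 to 0.04.

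**Figure D3:**
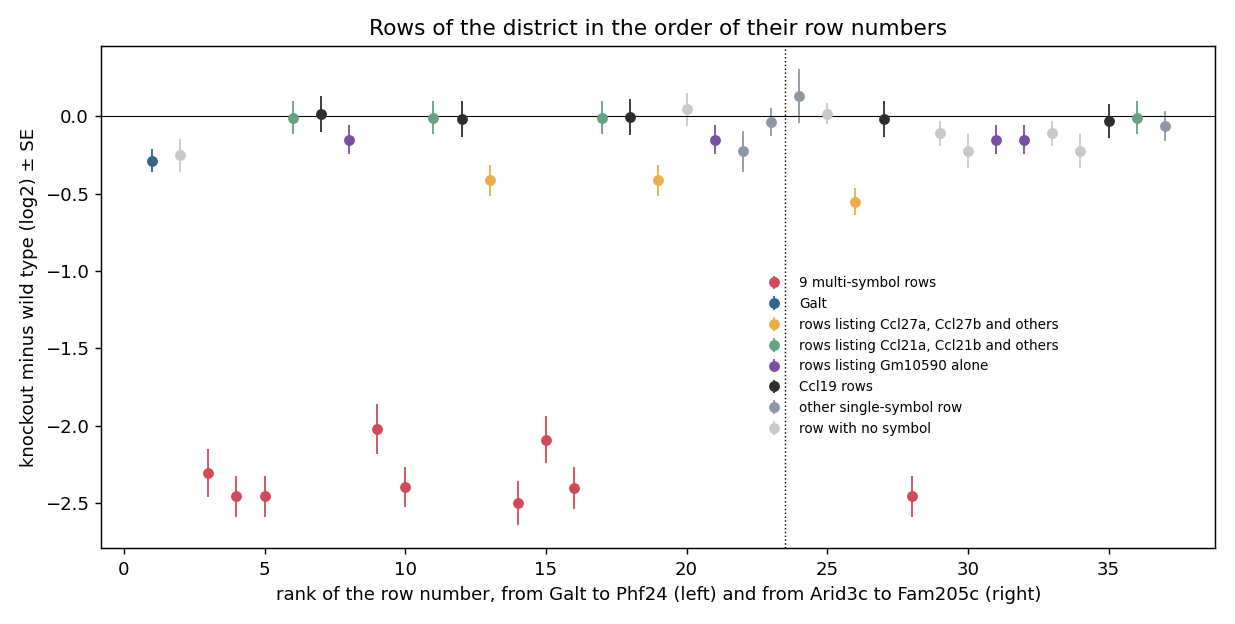
Knockout minus wild type (log2 ± SE, vertical axis) for the 37 rows of the district in row-number order (horizontal axis), with colours for the listed symbols and a dotted line between the 2 runs of row numbers. Multi-symbol members between -2.50 and -2.02 stand among 27 other rows, which lie between -0.55 and 0.13.

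Single-symbol genes on either side of Galt did not pass the test. The 20 nearest measured single-symbol genes on each side were taken where the gene identifier matched the RefSeq gene table. The row of 4930578G10Rik alone, matched by symbol only, is not among them. Of the genes taken, 19 were lower and 21 higher, with a median difference of 0.00 and a range of -0.29 to 0.25. None had an adjusted or unadjusted limma p under 0.05. Groups did not overlap in 3 of 40 (7.5%), against 6.11% of all rows. These were Ube2r2, a ubiquitin-conjugating enzyme (-0.08, and -0.04 without the first wild-type array), and Cd72, a B cell surface receptor (-0.07), both lower in knockout, and the kinase Tesk1 (0.12), higher. Groups of fewer arrays overlap less often: the count was 9 (22.5%) without the first wild-type array, where 16.9% of all rows did not overlap, 9 (22.5%) without the third wild-type array, against 22.9% of all rows, and 8 (20%) without the third knockout array, against 14.1%.

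Of these 40 genes, those nearest to Galt were Arid3c and Dctn3 before it and Ccl19 and Fam205c after it. By row number, other rows of the district lie between Galt and the Ccl19 row. Dctn3, a subunit of the dynactin complex that works with the motor dynein, had the highest difference of the 40, reading 9.996, 9.79 and 9.71 in wild type and 10.18, 9.96 and 10.11 in knockout (0.25, SE 0.11). Its groups overlapped. Arid3c, a DNA-binding protein gene, differed by 0.13 (SE 0.17; -0.04 without the first wild-type array) and the kinesin Kif24 by 0.12 (SE 0.08). Ccl19 differed by 0.01 (SE 0.12; -0.06 without the first wild-type and -0.07 without the third knockout array) and Fam205c by -0.06 (SE 0.10; 0.02 without the third wild-type array). Rmrp, the RNA of the RNase MRP complex, was lowest at 11.74, 11.94 and 11.61 in wild type and 11.58, 11.08 and 11.77 in knockout. Its groups overlapped, and its difference of -0.29 (SE 0.19) rested on the second knockout array, without which it was -0.09. The antisense gene Fam219aos stood at -0.09 (SE 0.12), and at 0.00054 without the third wild-type array.

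**Figure D4:**
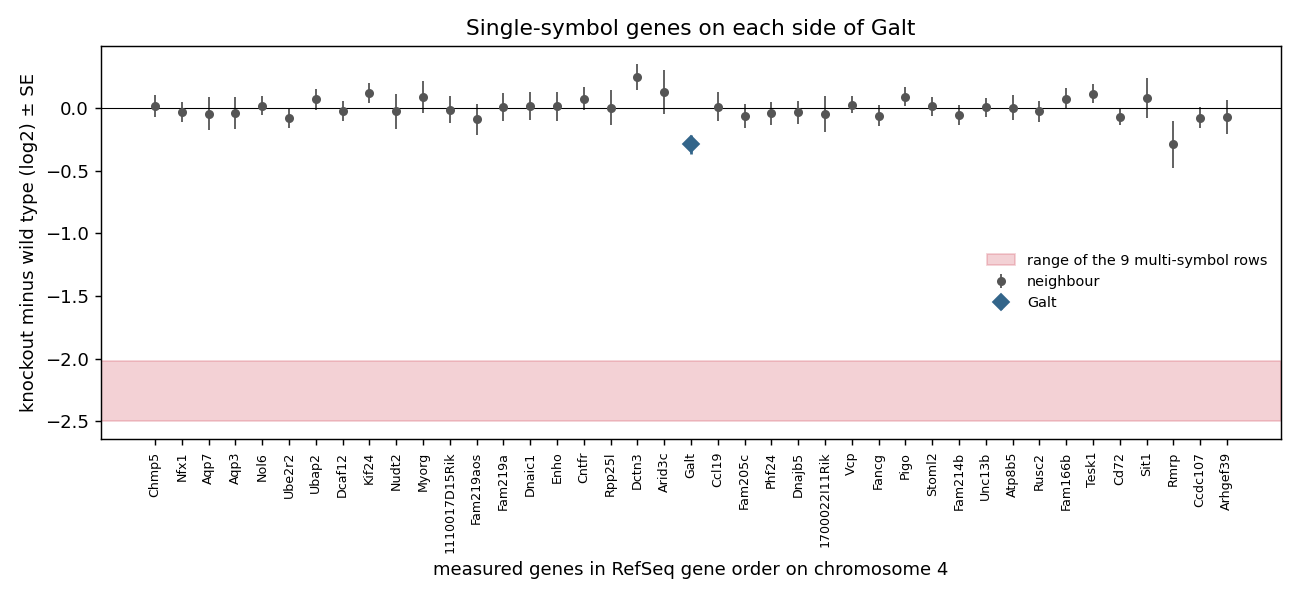
Knockout minus wild type (log2 ± SE, vertical axis) for the 20 measured genes on each side of Galt, in gene order by place from Galt (horizontal axis), with Galt marked. The neighbours lie between -0.29 and 0.25 around a median of 0.00, and Galt at -0.29; the shaded band is the range of the 9 multi-symbol rows, -2.50 to -2.02.

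Partners of Galt in galactose metabolism did not pass the test. Of 10 listed Leloir pathway genes, 7 were measured besides Galt; 4 were lower and 3 higher, with a median difference of -0.01, against -0.01 over all rows. Galm, which opens the pathway by turning over the galactose ring form, read 6.33, 6.34 and 6.35 in wild type and 6.37, 6.51 and 6.44 in knockout (0.10, SE 0.07). Pgm2, a phosphopentomutase and phosphoglucomutase, read 9.88, 9.84 and 9.74 in wild type and 9.74, 9.61 and 9.62 in knockout (-0.16, SE 0.08). Groups did not overlap in either gene, by margins of at most 0.02, and in none of the other 5; 2 of 7 genes stand beside 6.11% of all rows. Limma's adjusted and unadjusted p were both above 0.05 for all 7.

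Receptors and partners of the chemokine copies did not pass the test either. Of 18 homeostatic chemokine and receptor genes, 13 had a row listing them alone, 6 lower and 7 higher, with a median of 0.01. The Ccl21 and Ccl27 genes of the list appear only in multi-symbol rows and are not among the 13. The rows listing Ccl27a and Ccl27b, described above, were lower in knockout by -0.55 and -0.42, with an unadjusted limma p under 0.05. Ccr7, the receptor of Ccl19 and Ccl21, differed by -0.01 (SE 0.17) and Ccr10, the receptor of Ccl27 and Ccl28, by -0.13 (SE 0.13). The extremes were Cxcl12 at 0.19 (SE 0.12; 0.09 without the second knockout array) and Ccl28 at -0.18 (SE 0.30). Ccl28 was -0.06, -0.11 and -0.38 without wild-type array 1, 2 or 3, and -0.00019, -0.51 and -0.04 without knockout array 1, 2 or 3. It was 0.47 with a term for Y-linked signal, which leaves knockout array 2 alone. The scavenger receptor Ackr2 (0.17, SE 0.08) had groups that did not overlap, higher in knockout. It was 1 of the 13, beside 6.11% of all rows in either direction. None of the 13 had an adjusted or unadjusted limma p under 0.05.

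The interleukin-11 and related cytokine genes, listed because a receptor of that cytokine lies in the same repeated segment, gave 14 measured of 18. The receptor genes Il11ra1 and Il11ra2 themselves had no row listing them alone and are not among the 14. Of the 14, 3 were lower and 11 higher, with a median of 0.03. Il11 itself differed by 0.02 (SE 0.10), the shared signalling subunit Il6st by 0.05 (SE 0.08), the oncostatin M receptor Osmr by 0.21 (SE 0.09) and the transcription factor Stat3 by -0.04 (SE 0.08; 0.0027 without the first knockout array). Groups overlapped in all 14. A list of 30 genes named from the wider Galt district had 28 measured, 13 lower and 15 higher at a median of 0.01. Most of the 28 were also among the 40 neighbours of Galt, so the list is not a separate set. The row numbers of Prss3 and Dnaja1 were far from those of the other genes, so their place near Galt is not shown. Bag1, a cochaperone, was lowest at -0.20 (SE 0.16). It was -0.07 without knockout array 3, -0.11 without wild-type array 1 and -0.36 without knockout array 1. In both lists none passed limma's adjusted threshold and none had an unadjusted p under 0.05.

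Profiles most like those of the members were sought among 13325 single-symbol rows with an SD of at least 0.1 over the 6 arrays. For rows 10504123 and 10504125 the closest by Pearson's r over the 6 arrays were Adam29 (0.991), Sult6b1 (0.973), Ugt2b38 (0.972), Fgfr1op2 (0.971) and C4bp-ps1 (0.960), none of them on chromosome 4. For the observation of 10504148, 10504178 and 10512327 they were Adam29 (0.987), Ccdc17 (0.969), Sult6b1 (0.969), C4bp-ps1 (0.967) and Olfr1495 (0.965); of these Ccdc17 is on chromosome 4. Galt was most like Ugt2b38 (0.994), Slc35b2 (0.979), Fgfr1op2 (0.973), Adam29 (0.972) and 3110070M22Rik (0.970). All of these rows share the arrays and the group difference with the members, and r does not reflect size: their differences ran from -0.44 for Fgfr1op2 to -0.17 for Slc35b2. Adam29, Sult6b1, Ugt2b38, C4bp-ps1 and Olfr1495 had group means under the 6.13 guide to background.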

How the data were processed

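RNA from 3 wild-type and 3 knockout samples was amplified, biotin-labelled and run on Affymetrix whole-transcript arrays, per the labels' protocols. The values deposited by the authors are on the log2 scale and were made with RMA (background correction, equalised probe distributions and a summary per transcript cluster) per the submitters' processing notes; version and genome build: not given in the sources used here. RMA removes any global shift, and cross-matching probes are summarised as they are. With 3 arrays a group, that number is what limits the precision.

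All 35557 rows were fitted with limma 3.58.1 in R 4.3.3 (lmFit and eBayes, group as the only term, no filter), two-sided, with Benjamini-Hochberg adjustment over all rows. Standard errors are from this fit. Symbols came from the platform annotation: 21789 rows had 1 symbol, 1621 several and 12147 none listed. Symbols were updated, and genes ordered, with a RefSeq table of GRCm38.p6. For a gene with several rows the row of highest mean stood for it. A listed gene counts as measured where it had a row listing it alone. Member rows within 0.1 log2 units on every array counted as 1 observation, and 702 rows of the table (1.97%) held the same values as another row. The fit was tested on simulated data. The members and lists were chosen with earlier results of these data known.

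Named are the members, Tnc, the 3 highest and 3 lowest neighbours of Galt and the 2 neighbours nearest to it on each side. Also named are the extremes of each list with genes that act with a listed symbol, and the 5 rows most like each profile. The Ccl27, Ccl21, Gm10590 and single 4930578G10Rik rows, Ube2r2, Cd72, Tesk1, Ackr2 and Xist were named after their values were seen. Alternatives were leaving out each array, a replicate block, an intensity trend, the same with robust fitting, array weights, a filter on dim rows, renewed quantile normalization, median centring, symbol-bearing rows alone, a Y-linked term and other rules for joining rows.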

Additional observations from a re-analysis of the deposited data

How the results depend on the processing

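Leaving out 1 array at a time, 0 to 12 rows passed the adjusted threshold of limma, with 0 without knockout replicate 1 (smallest adjusted p 0.0551) and 12 without knockout replicate 2. Of those 12, 7 were multi-symbol rows and 4 were Y-linked or Xist rows. Without knockout replicate 2 every knockout array carries Y-linked signal, so genotype and that signal cannot be told apart. Array weights gave 38 rows, with the second wild-type array weighted at 8.22 and the others at 0.264 to 1.99. The cause was not tested. No count is given with a term for Y-linked signal, since that fit compares knockout array 2 alone with the wild-type arrays. The replicate numbers did not pair the arrays (r of deviations 0.22, -0.05 and 0.32), and with the replicate block 9 rows passed. Since the members were chosen on this contrast, these counts say nothing of their stability. The median difference of the distinct observations was -2.53 with array weights and -1.31 when rows joined by a shared symbol counted as 1, which leaves 2 observations; joining rows within 0.3 log2 units left 3. Without 1 array, the neighbours of Galt whose groups did not overlap numbered 3 to 9 of 40 (7.5% to 22.5%), while 11.7% to 22.9% of all rows did so. Of 135 combinations of multi-symbol row and setting, 132 moved by less than the spread between replicates. Many of these were fixed in advance. The replicate block, the intensity trend with or without robust fitting and both row filters cannot change a difference. The count of 132 is thus no measure of stability. Galt ran from -0.35 to -0.25. Signs turned for Arid3c (-0.039 to 0.29 without 1 array), Ccl19 (-0.074 to 0.097), Fam205c (-0.13 to 0.016), Fam219aos (-0.19 to 0.00054) and Stat3 (-0.089 to 0.0027). Array weights turned Fam219aos to 0.14 and Stat3 to 0.0093. The Y-linked term, which leaves knockout array 2 alone, turned Ccl28 to 0.47, Fam219aos to 0.070, Stat3 to 0.072 and row 10504203 to 0.017. Array weights also put Fgfr1op2 past the threshold (-0.55, limma adjusted p = 0.0373). Median centring made the split of lower to higher genes 15 to 25 for the neighbours, 2 to 5 for the Leloir pathway, 1 to 13 for the cytokine list, 4 to 9 for the chemokine list and 9 to 19 for the genes named from the district. The settings for the district rows were chosen after seeing the data.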
